A study of Mus musculus with 120 samples.

Results

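This account follows 33 genes of protein folding in the endoplasmic reticulum (ER) and of the unfolded protein response in single cells of the mouse endolymphatic sac. The members were listed by gene symbol, with earlier results of these data known, and all 33 were found among the 48371 gene symbols of the expression table. Selenos is carried there under its older symbol Vimp and was matched by that symbol. By role, 15 members are ER folding factors, 4 belong to ER-associated degradation, 4 are the stress sensors with the transcription factor XBP1, and 10 form the Atf4 branch.

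The ER folds and checks proteins that a cell secretes or places in its membranes. When unfolded chains accumulate there, the sensors ATF6, IRE1 (gene Ern1) and PERK (gene Eif2ak3) are activated. ATF6 and the spliced form of XBP1 raise chaperone and degradation genes, while PERK slows translation and lets ATF4 be made, which in turn raises genes of amino acid supply and, under lasting stress, of cell death. The endolymphatic sac is a fluid-filled pouch of the inner ear whose epithelium includes acid- and anion-moving ionocytes. OC90, which the sac epithelium also makes, is a secreted matrix protein of the otoconia, the mineral grains of the balance organs.

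Cells came from Sox9Y440X/+ and wild-type sacs at stage E14.5, counted in days of embryonic life. The Sox9Y440X allele carries a stop codon late in the reading frame of the transcription factor SOX9 and is present beside an intact copy. The labels name no Cre driver, transgene or treatment. The study sequenced 120 single cells by Smart-seq2, a full-length RNA protocol, 62 of them Sox9Y440X/+ and 58 wild-type. Values are FPKM, fragments scaled by transcript length and by the library's total, so levels can be set side by side between genes. The labels do not say which animal a cell came from. Each genotype counts as 1 sample, cells were not replicates, and no p-value was computed. SDs below are over cells.

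The comparisons used 58 Sox9Y440X/+ and 57 wild-type cells with at least 1000 genes. Clustering without the members and without the other listed pathway genes gave 8 clusters. Named from marker lists, 37 Sox9Y440X/+ and 56 wild-type cells were epithelial, with a median of 12 and 11 of 14 epithelium markers detected per cell. Of these, 5 Sox9Y440X/+ and 8 wild-type cells were ionocyte-like, with a median of 8 and 13 of 19 ionocyte markers. Mesenchyme-like cells numbered 21 in Sox9Y440X/+ and 1 in wild type, and 1 of the 21 had all 11 endothelium markers. Read depth is unknown for FPKM, but the median number of genes per epithelial cell was 4506 in Sox9Y440X/+ and 3241.5 in wild type. Xist was detected in 0 of 37 Sox9Y440X/+ and 34 of 56 wild-type epithelial cells, so cells with Xist were in the wild-type sample alone. Values within a depth window and without Xist-positive cells are given beside the genotype differences.

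The highest mean levels among the members belonged to folding factors. In Sox9Y440X/+ epithelial cells the leader was Pdia3, a disulfide isomerase that works with the lectin chaperones, with a mean of 487 FPKM. Next came Hspa5, the ER Hsp70 known as BiP, with 295 FPKM, then the disulfide isomerases Pdia6 with 267 FPKM and P4hb with 219 FPKM. In wild-type epithelial cells Pdia3 also led with 564 FPKM, followed by Pdia6 with 443 FPKM, P4hb with 291 FPKM, Hspa5 with 283 FPKM, Calr with 266 FPKM and Hsp90b1 with 224 FPKM. The lowest folding factor in both genotypes was Hyou1, a nucleotide exchange factor for BiP, with 3.03 FPKM in Sox9Y440X/+ and 6.38 FPKM in wild type.

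The sensors were near the detection limit of 1 FPKM in most cells. Atf6 was detected in 8 of 37 Sox9Y440X/+ and 12 of 56 wild-type epithelial cells, Ern1 in 3 and 3, and Eif2ak3 in 1 and 6. Among the Atf4 branch, levels spread from Phgdh, the first enzyme of serine synthesis, with a mean of 145 FPKM in Sox9Y440X/+ and 186 FPKM in wild type, to Trib3, a pseudokinase target of ATF4 and CHOP, which was listed at 0 in all 37, all 56 and all 21 mesenchyme-like cells. A count of 0 allows a share of cells with Trib3 of up to 8.11% in Sox9Y440X/+ epithelial, 5.36% in wild-type epithelial and 14.3% in Sox9Y440X/+ mesenchyme-like cells. Chac1, a glutathione-degrading target of the same branch, was detected in 0 of 37 Sox9Y440X/+ and 1 of 56 wild-type epithelial cells. These limits, like the binomial intervals below, cover counting error only.

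**Figure D1:**
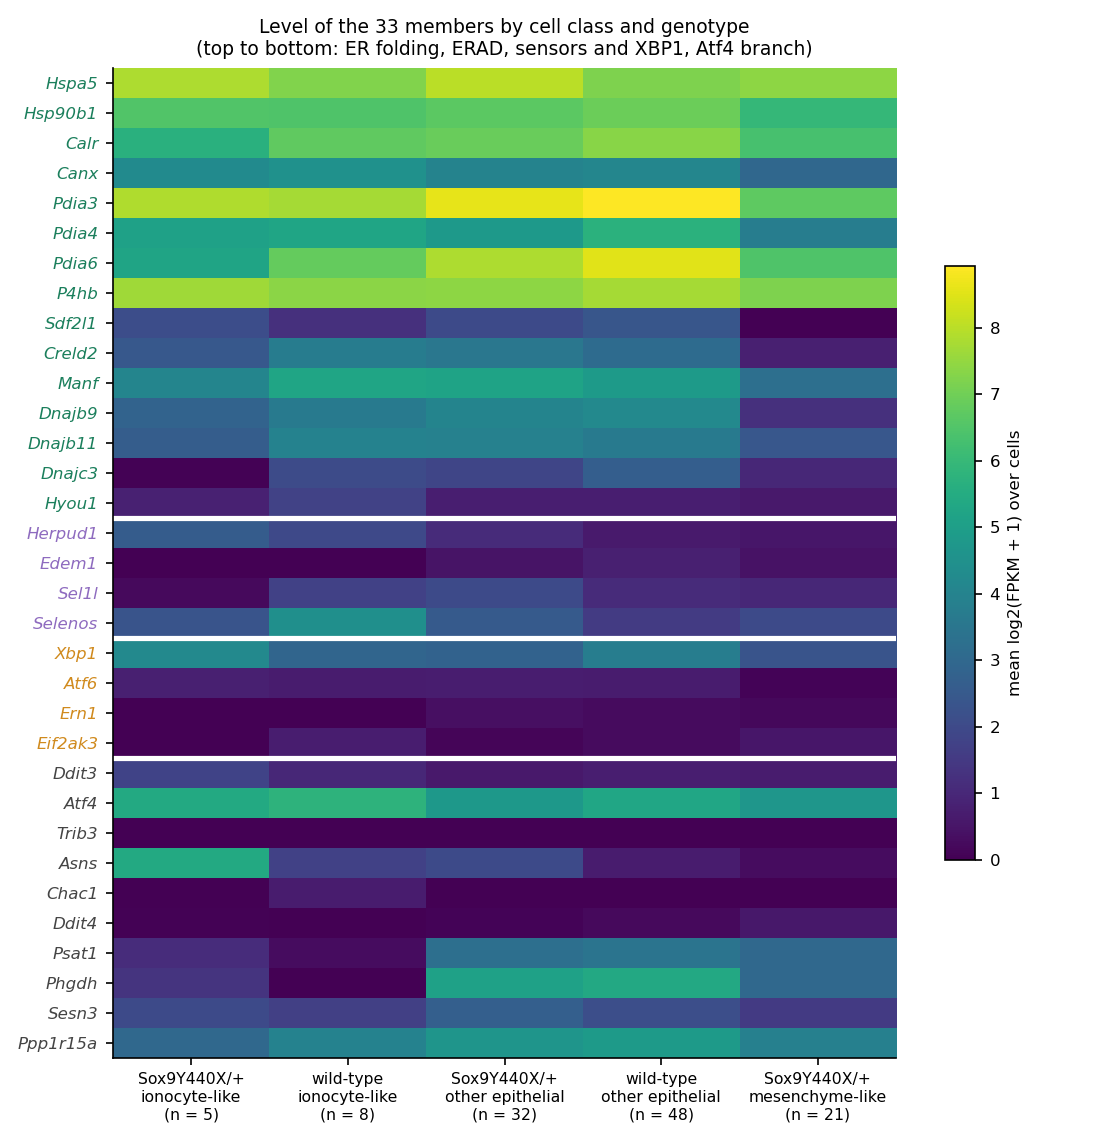
Mean log2(FPKM + 1) of each member (rows, grouped by branch) in 5 cell sets (columns, with the number of cells), on a colour scale from dark (0) to yellow. ER folding members fill most of the bright rows, the sensors Atf6, Ern1 and Eif2ak3 are dark in every column, and Phgdh and Psat1 are bright in other epithelial cells and dark in ionocyte-like cells.

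Promoter letters of the folding factors and of the Atf4 branch are shown because ER stress elements are the known route by which ATF6 and XBP1 raise chaperone genes together. RefSeq promoters of 300 bases (250 before to 50 after the gene start, GRCm38.p6) were matched for 30 of 33 members. The ER stress element, CCAAT and CCACG with 9 free bases between them, was searched on both strands. It was present in 7 of 13 folding promoters, in 0 of the matched promoters of the other branches, and in 0.119% of all 32851 promoters. A related element, ERSE-II, is ATTGG and CCACG with 1 free base between them. ERSE-II was present in 1 of 13 folding promoters (Dnajb11), in 1 of 4 degradation promoters (Herpud1) and in 0.0365% of all promoters. Matches of the first element are given 5′ to 3′ on the motif's own strand, with the fixed letters in capitals.
Hspa5, chr2:34772025-34772043, plus strand: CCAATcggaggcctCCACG
Hsp90b1, chr10:86705638-86705656, minus strand: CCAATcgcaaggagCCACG
Hsp90b1, chr10:86705533-86705551, plus strand: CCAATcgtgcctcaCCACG
Calr, chr8:84847075-84847093, plus strand: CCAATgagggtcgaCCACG
Canx, chr11:50325800-50325818, minus strand: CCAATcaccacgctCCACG
Pdia6, chr12:17266491-17266509, plus strand: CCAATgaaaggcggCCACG
Creld2, chr15:88819520-88819538, minus strand: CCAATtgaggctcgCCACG
Dnajc3, chr14:118937827-118937845, plus strand: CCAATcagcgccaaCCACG

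The fixed ends of the element are the same letters in each line by the rule of the search, and the bases between them differ. In the Hspa5 promoter the element lies from 65 to 47 bases before the start. The 250 bases upstream of Hspa5 (GRCm38.p6, chr2:34771840-34772089, plus strand) are shown with the element in capitals.
Hspa5: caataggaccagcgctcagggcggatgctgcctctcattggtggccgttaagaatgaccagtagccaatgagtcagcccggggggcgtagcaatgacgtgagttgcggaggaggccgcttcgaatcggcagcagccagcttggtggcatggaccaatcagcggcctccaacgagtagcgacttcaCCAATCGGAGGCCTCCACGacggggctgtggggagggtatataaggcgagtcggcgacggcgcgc

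The C/EBP-ATF response element TGATGNAA, which ATF4 binds together with C/EBP factors, was present in 3 of 10 promoters of the Atf4 branch (Trib3, Asns and Chac1), in Herpud1 of the degradation branch and in 0 of the 13 folding promoters. Of all 32851 promoters, 3.97% held it. Asns, the asparagine synthetase gene whose level turned out to differ most between the genotypes among the members, carries it from 23 to 16 bases before the start. Its 250 upstream bases (GRCm38.p6, chr6:7693210-7693459, minus strand) are shown with the element in capitals. A match describes letters in this window and says nothing about binding.
Asns: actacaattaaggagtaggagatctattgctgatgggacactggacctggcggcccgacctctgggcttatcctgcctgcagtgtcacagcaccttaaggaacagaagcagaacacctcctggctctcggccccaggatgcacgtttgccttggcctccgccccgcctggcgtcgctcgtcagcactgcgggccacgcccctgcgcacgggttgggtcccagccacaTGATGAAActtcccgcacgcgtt

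The first comparison asked how the members differed between Sox9Y440X/+ and wild-type cells of the same broad class. In epithelial cells the folding factors lay slightly lower in Sox9Y440X/+, against a table that lay slightly higher. The difference used throughout is that of mean log2(FPKM + 1), Sox9Y440X/+ minus wild type, and a difference of at least 1 log2 unit is counted as called. The median over the 15 folding members was -0.20, with 11 of 15 below 0, while the median of all counted genes was 0.22, with 30.1% below 0. Counted are the 10342 genes found in 10% or more of either genotype's cells. Called counts were 0 higher and 0 lower among the 15, beside 8.02% higher and 1.38% lower over all genes. Where detection reached 50% in both genotypes, 8 of 11 folding members lay below 0 beside 28.6% of 1612 genes.

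Hspa5 departed from the rest of the branch on this scale. It ranged from 66.9 to 971 FPKM with a median of 261 in Sox9Y440X/+ epithelial cells, against 0 to 1337 FPKM with a median of 267 in wild-type epithelial cells. The medians nearly coincide and the ranges overlap. The difference of 0.79 log2 units came with 4 wild-type cells and no Sox9Y440X/+ cell under the detection limit, and the log2 ratio of the mean FPKM was 0.06. Hsp90b1, the ER Hsp90 known as GRP94, ranged from 0 to 535 FPKM with a median of 134 in Sox9Y440X/+ cells, against 0 to 800 FPKM with a median of 196 in wild-type cells, a difference of -0.18. Calr, the calcium-binding lectin chaperone calreticulin, ranged from 0 to 431 FPKM with a median of 154 in Sox9Y440X/+ cells, against 0 to 884 FPKM with a median of 195 in wild-type cells, a difference of -0.53. In both genes the groups overlapped, and the highest cells were wild-type.

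The disulfide isomerases showed the same order of medians. Pdia6 ranged from 0 to 675 FPKM with a median of 231 in Sox9Y440X/+ cells, against 0 to 1183 FPKM with a median of 396 in wild-type cells, a difference of -0.79. Pdia3 ranged from 37 to 1318 FPKM with a median of 449 in Sox9Y440X/+ cells, against 0 to 1514 FPKM with a median of 543 in wild-type cells, a difference of -0.25. Pdia4 differed by -0.76 and P4hb by -0.26. The lowest value in the branch was that of Dnajc3, an ER co-chaperone that also restrains PERK, at -0.94, detected in 14 of 37 Sox9Y440X/+ and 30 of 56 wild-type cells. Canx, the membrane-bound relative of calreticulin, differed by -0.13. Small BiP partners and secreted helpers lay close to 0, with Dnajb11 at 0.08, Manf at 0.10, Creld2 at 0.21, Sdf2l1 at -0.20 and Dnajb9 at -0.27.

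How many members were called lower depended on which cells entered. In cells with 2500 to 5500 genes, 27 Sox9Y440X/+ and 37 wild-type, the folding median was -0.46 and 7 of the 15 were called lower, beside 3.86% of all genes and a median of 0.14 over them. Those 7 were Hsp90b1, Calr, Pdia4, Pdia6, Sdf2l1, Manf and Dnajc3, and Xbp1 and Atf4 were called lower as well. Against the 22 wild-type epithelial cells without Xist, the folding median was -0.55 with 13 of 15 below 0, and Creld2 and Dnajc3 were called lower, beside 4.35% of genes. Over all cells of each genotype, which differ in their share of mesenchyme-like cells, the folding median was -0.68 and 4 of 15 were called lower, beside 3.21% of genes.

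**Figure D2:**
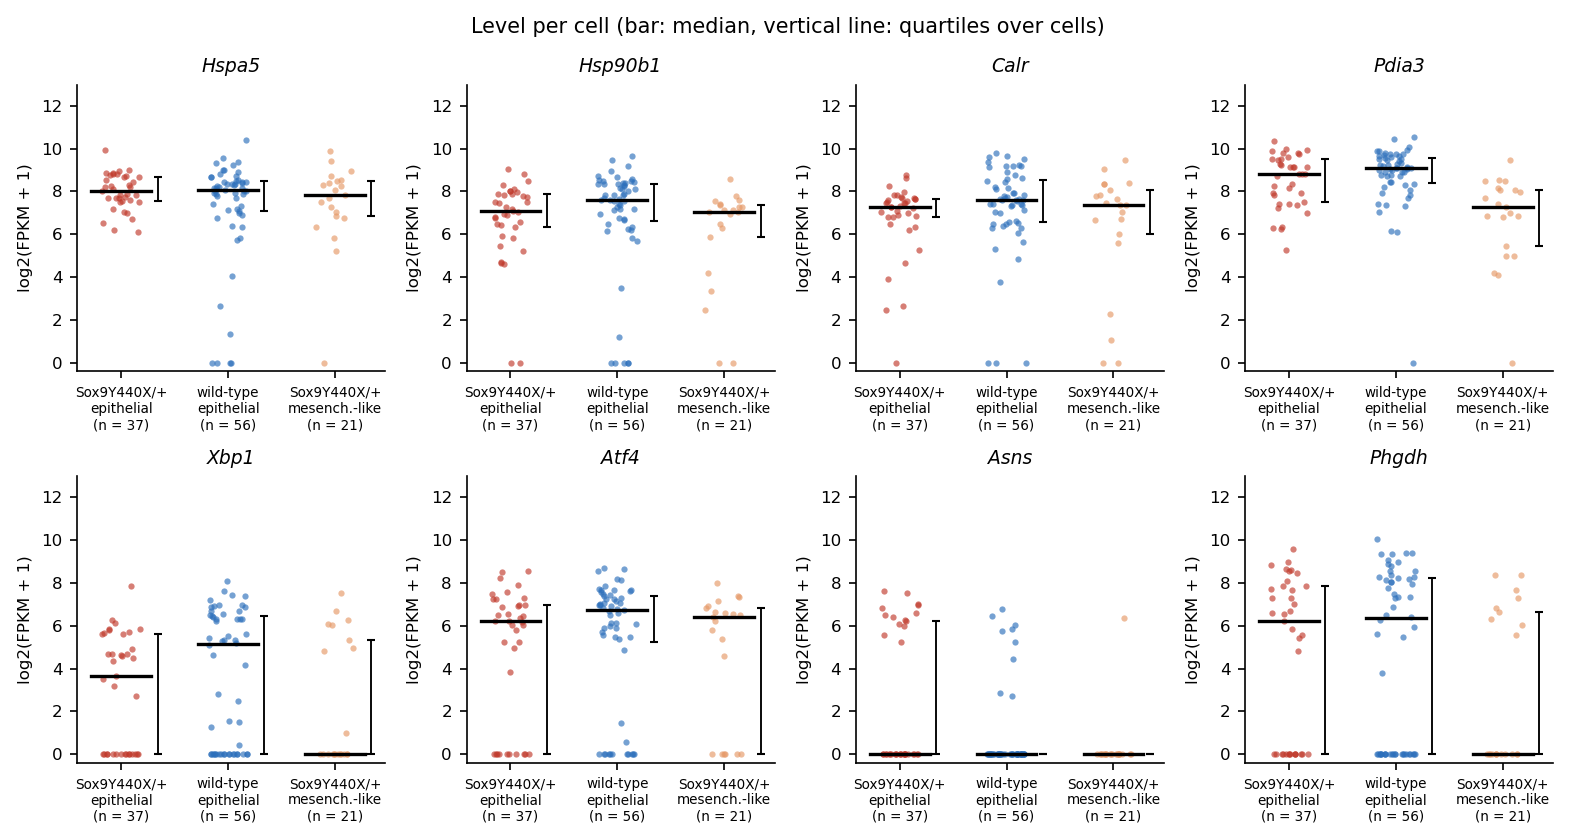
Level per cell, log2(FPKM + 1), of 8 members in 37 Sox9Y440X/+ epithelial, 56 wild-type epithelial and 21 Sox9Y440X/+ mesenchyme-like cells. Each point is a cell, the bar is the median and the vertical line spans the quartiles. Hspa5 medians match between the epithelial groups, Pdia3 is lower in mesenchyme-like cells, and Asns is detected in 14 of 37, 9 of 56 and 1 of 21 cells.

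Of the degradation branch, no member was called between genotypes in epithelial cells. Sel1l, the adaptor of the HRD1 ubiquitin ligase, differed by 0.59, Selenos, a selenoprotein of the same complex, by 0.52, Herpud1, a stress-raised scaffold, by 0.47, and Edem1, which marks misfolded glycoproteins for disposal, by -0.25. The median of the 4 was 0.50, above the median of all genes. The sign for Selenos rests on pooling the clusters. Its difference was -2.14 in cluster 1, -0.33 in cluster 3 and -0.71 in cluster 6, and averaged over these 3 clusters it was called lower at -1.06, beside 6.70% of genes.

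Xbp1, the target of IRE1 splicing and activator of secretory genes, was lower in Sox9Y440X/+ without reaching the call. It ranged from 0 to 229 FPKM with a median of 11.7 in Sox9Y440X/+ epithelial cells, against 0 to 268 FPKM with a median of 34.2 in wild-type epithelial cells. The groups overlapped, and undetected cells were frequent in both, with 22 of 37 and 36 of 56 cells detected. The difference was -0.67. FPKM per gene does not separate spliced from unspliced Xbp1. The sensor Atf6 differed by 0.04 and Eif2ak3 by -0.22, and Ern1 was under 10% of cells in both genotypes. Mean levels of Eif2ak3 were under the detection limit, with 0.304 FPKM in Sox9Y440X/+ and 0.872 FPKM in wild type, and their log2 ratio was -1.52. On that ratio scale Dnajc3, Hyou1, Edem1, Eif2ak3 and Ddit4 were lower by at least 1 log2 unit, beside 13.4% of all genes.

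The Atf4 branch held the only member called between genotypes, Asns, the enzyme that makes asparagine. Over all genes, 8.02% were called higher and 1.38% lower. Asns ranged from 0 to 194 FPKM with a mean of 37.2 in Sox9Y440X/+ epithelial cells, against 0 to 110 FPKM with a mean of 7.87 in wild-type epithelial cells. The median cell was at 0 in both groups. It was detected in 14 of 37 Sox9Y440X/+ cells (37.8%, exact Clopper-Pearson 95% interval 22.5% to 55.2%) and 9 of 56 wild-type cells (16.1%, interval 7.62% to 28.3%), and those intervals overlap. The difference was 1.63 log2 units, and it stayed at 1.39 against wild-type cells without Xist and at 1.33 in cells with 2500 to 5500 genes. Ionocyte-like cells contributed 4 of 5 Sox9Y440X/+ and 3 of 8 wild-type cells. Without them the difference was 1.32. With a pseudocount of 10 in place of 1 it was 0.89, which ends the call, and the log2 ratio of the mean FPKM was 2.24.

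Most other members of the branch lay at or below 0. Atf4 itself ranged from 0 to 373 FPKM with a median of 72.6 in Sox9Y440X/+ epithelial cells, against 0 to 410 FPKM with a median of 105 in wild-type epithelial cells, overlapping groups with a difference of -0.51. Its translation, which is what PERK controls, is not measured by RNA. Ddit3, the gene of the death-linked factor CHOP, was detected in 4 of 37 Sox9Y440X/+ and 7 of 56 wild-type cells, with maxima of 525 and 312 FPKM and a difference of -0.01. Phgdh (-0.01) and Psat1 (-0.02), enzymes of serine synthesis, matched between the genotypes as a whole. Ppp1r15a, the phosphatase subunit that restarts translation, differed by -0.29, Ddit4, an mTOR inhibitor, by -0.11, and Sesn3, a sestrin, by 0.51. Of the 8 members detected in at least 10% of cells, 2 lay above 0, and the median over the 10 was -0.02.

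The list-wide values for Phgdh hide a split between clusters. Cluster 3, led by Aldh1a1 and Myl7, holds 11 cells of each genotype, with a median of 5237 genes per cell in Sox9Y440X/+ and 5346 in wild type. There Phgdh ranged from 0 to 228 FPKM with a median of 0 in Sox9Y440X/+ cells, against 12.7 to 662 FPKM with a median of 266 in wild-type cells. It was detected in 5 of 11 Sox9Y440X/+ cells (45.5%, interval 16.7% to 76.6%) and 11 of 11 wild-type cells (100%, interval 71.5% to 100%). The difference was -4.69, in a cluster where 14.6% of 10476 genes were called lower. Psat1, the next enzyme of the pathway, ranged from 0 to 70.6 FPKM with a median of 9.11 in Sox9Y440X/+ cells, against 0.268 to 347 FPKM with a median of 54.9 in wild-type cells, a difference of -2.43.

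The other clusters gave mixed values for Phgdh. Cluster 2, led by Fam132a and Aldh1a3, holds 10 Sox9Y440X/+ cells and 1 wild-type cell, and all 10 had Phgdh, from 27.5 to 408 FPKM with a median of 236, against 161 FPKM in the wild-type cell. In cluster 6, led by Oc90 and Spp1, Phgdh was detected in 3 of 7 Sox9Y440X/+ and 16 of 25 wild-type cells. The difference there was -1.75, with the sign of cluster 3, beside 12.8% of genes called lower. In cluster 1 it was 1.34, beside 17.6% called higher, with Phgdh detected in 1 of 5 Sox9Y440X/+ cells and in no wild-type cell. The value of -0.01 over all epithelial cells pools these clusters, which the genotypes fill unequally. Cluster 8, for example, holds 10 wild-type and 0 Sox9Y440X/+ cells.

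Within clusters the folding factors again lay lower in Sox9Y440X/+. In cluster 3 their median was -0.37 beside -0.07 over all genes, with 12 of 15 below 0 beside 53% of genes, and 3 were called lower beside 14.6% of genes, Dnajb11 (-1.48), Dnajc3 (-1.30) and Manf (-1.28). In cluster 6 the median was -0.62 beside 0.06 over all genes, with 12 of 15 below 0 beside 47.4%, 5 called lower beside 12.8% and 1 called higher beside 12.3%. The member called higher there was Hspa5 at 1.28, with a median of 295 FPKM in 7 Sox9Y440X/+ cells and 291 FPKM in 25 wild-type cells, and 3 of the 25 undetected. Xbp1 was called lower in both, at -1.22 in cluster 3 and -2.23 in cluster 6. In the ionocyte-like cells of cluster 1 it was called higher, at 1.29, beside 17.6% of genes. Asns was not called in cluster 3, where it was detected in 4 of 11 Sox9Y440X/+ and 5 of 11 wild-type cells with a difference of -0.35, and was called in cluster 6, at 1.83 with 2 of 7 and 1 of 25 cells. In cluster 1, the ionocyte-like cells, the folding median was -0.83 over 5 Sox9Y440X/+ and 8 wild-type cells, beside -0.12 over all genes, with 6 of 15 called lower beside 16.8%. As log2 ratios of mean FPKM that folding median was -0.018, beside 0.16 over all genes. Over the 9 folding members detected in at least 50% of both genotypes' cells the median difference was -0.12 with 5 below 0. The median over all genes so detected was 0.22. Asns in cluster 1 was detected in 4 of 5 and 3 of 8 cells, a difference of 3.69 beside 17.6% of genes called higher.

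**Figure D3:**
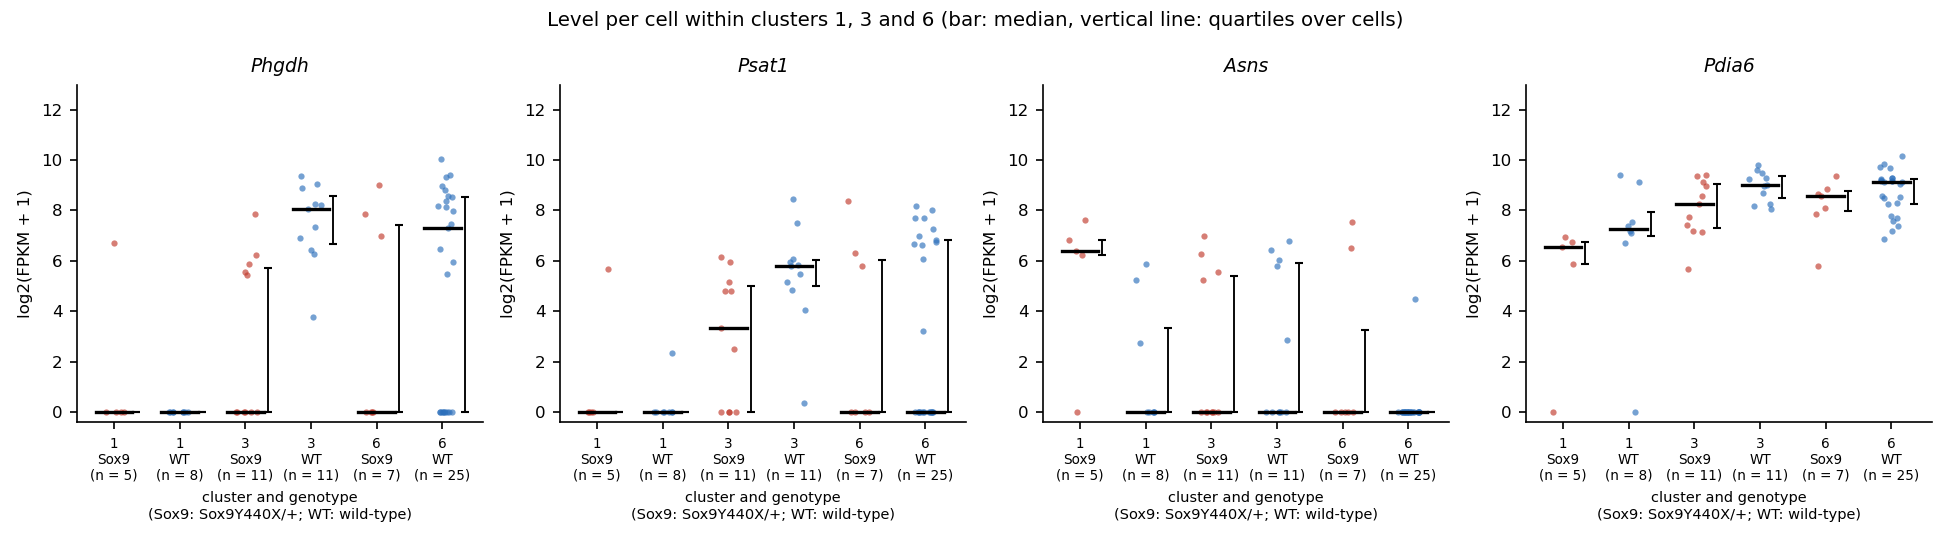
Level per cell, log2(FPKM + 1), of Phgdh, Psat1, Asns and Pdia6 in clusters 1 (ionocyte-like), 3 (Aldh1a1-led) and 6 (Oc90-led), Sox9Y440X/+ left of wild-type. Points are cells, the bar is the median and the vertical line spans the quartiles. In cluster 3, Phgdh was at 0 in 6 of 11 Sox9Y440X/+ cells and in 0 of 11 wild-type cells.

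Neighbouring steps of the secretory route gave mixed values between genotypes, to be read beside the 8.02% of all genes called higher and 1.38% called lower. Of 15 genes of translocation and signal peptidase, 1 was called higher and 1 lower, and these were paralogous catalytic subunits of signal peptidase, Sec11a at 1.30 and Sec11c at -1.64. Sec11a had mean levels of 151 FPKM in Sox9Y440X/+ and 104 FPKM in wild type. Sec11c had 28.1 FPKM in Sox9Y440X/+ and 55 FPKM in wild type. Tram1, a translocation helper, was at -0.91. Of 13 N-glycosylation genes, Mlec, a glucose-binding lectin of the ER, was called lower at -1.13, and Ostc, an oligosaccharyltransferase subunit, was at 0.98. Of 12 other folding genes with detection, Sil1, a BiP exchange factor, was called lower at -1.28 and Fkbp2, an ER prolyl isomerase, was at -0.92. The list median was -0.49, with 9 of 12 below 0. Surf4, a cargo receptor, was the one of 10 export genes called lower, at -1.17, and Sec13, a coat subunit, was at 0.67. Called counts were 0 of 14 for the other degradation genes, with the ubiquitin-conjugating Ube2j2 at 0.94 and Ube2j1 at 0.85, and 0 of 7 for the other sensors, with Eif2s1, the target of PERK, at 0.75 and the sensor kinase Eif2ak4 at 0.49.

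Lists of tRNA synthetases, heat shock genes and immediate-early genes had medians of 0.64, 0.51 and 0.68, beside 0.22 over all genes. As log2 ratios of mean FPKM these medians were 0.075, 0.14 and -0.11, beside 0.09 over all genes. Within clusters the immediate-early median was -0.43 in cluster 3 and -0.41 in cluster 6. Of 13 detected ATF4 targets, Eif4ebp1, a translation inhibitor, was called higher at 1.62, while Stc2, a secreted glycoprotein, was at -0.93 and Psph, the last serine synthesis enzyme, at -0.89. Among 11 aminoacyl-tRNA synthetases, many of them ATF4 targets, Wars (1.62) and Gars (1.11) were called higher, beside 8.02% of genes. Of 13 cytosolic and mitochondrial heat shock genes, 5 were called higher and 0 lower, beside 8.02% and 1.38% of genes. The largest were Hspa9, the mitochondrial Hsp70, at 2.22, Hspb1 at 1.65 and Hsp90aa1 at 1.35. Among collagen folding genes, Serpinh1, the collagen chaperone HSP47, was called higher at 1.15 and Plod1, a lysyl hydroxylase, lower at -1.21. Immediate-early genes, which also answer to cell dissociation, had 3 of 16 called higher and 1 lower, led by Cyr61 at 3.46 and Dusp1 at 2.78. Broadly expressed reference genes had a median of 0.02, with 0 of 12 called and Ppia, a prolyl isomerase, at 0.80.

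**Figure D4:**
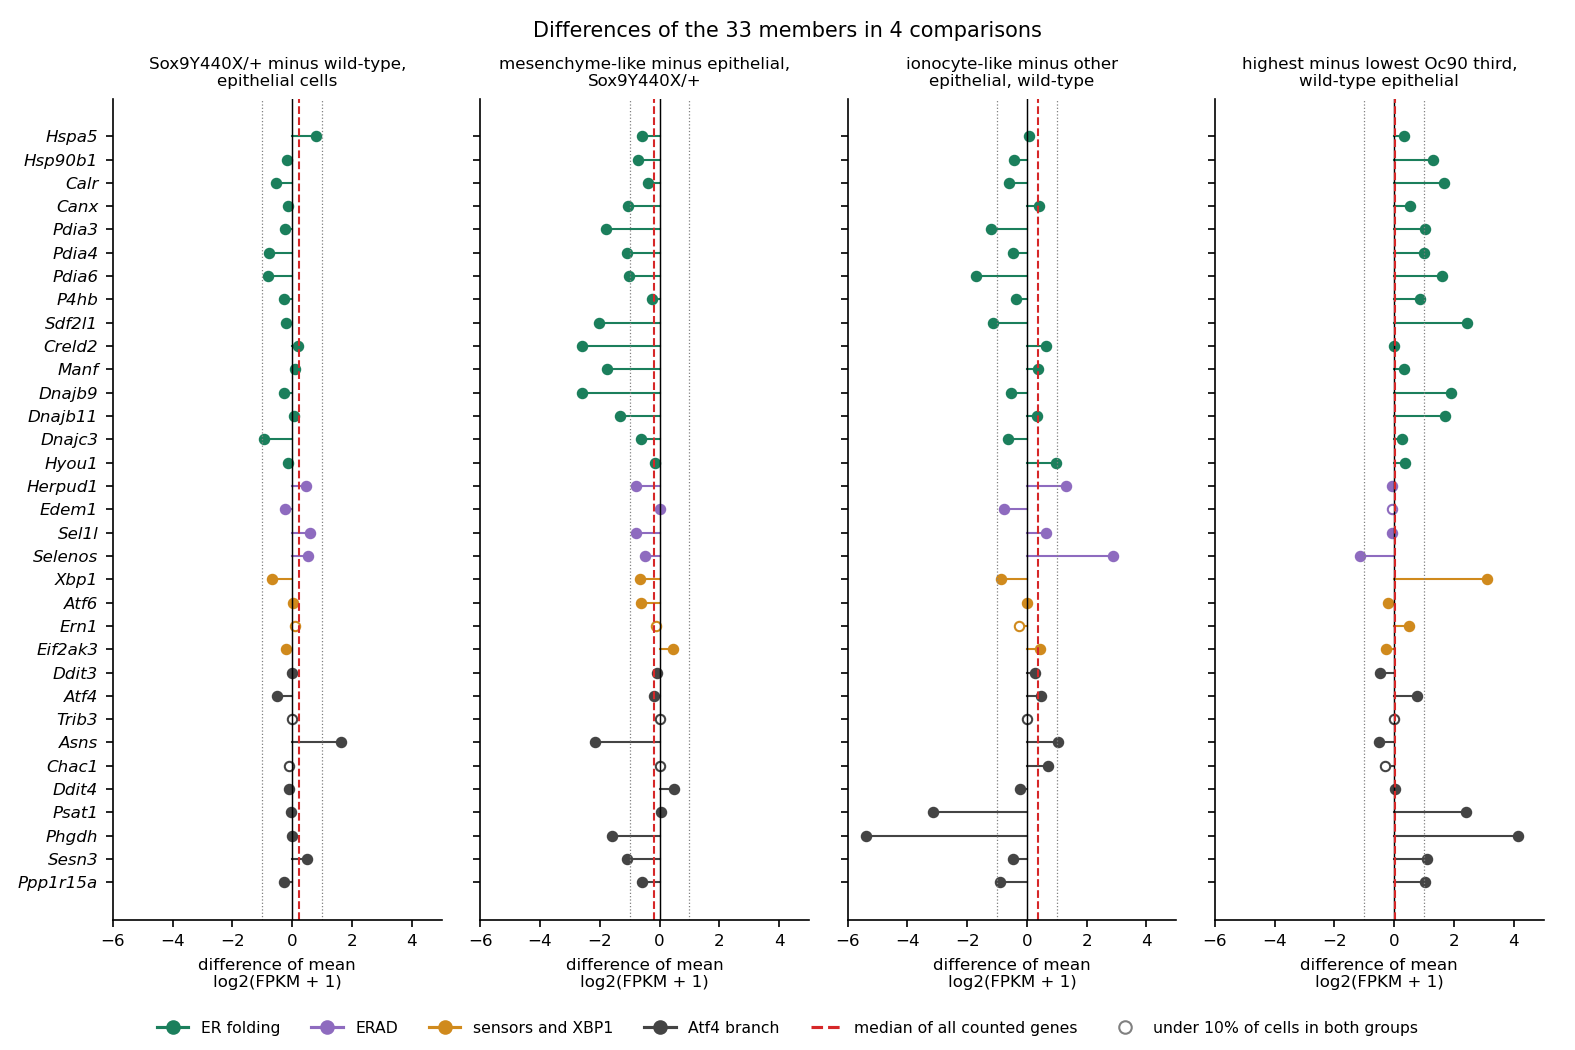
Difference of mean log2(FPKM + 1) for each member (rows) in 4 comparisons (panels, the group named first minus the other). Dotted lines mark 1 log2 unit, the dashed red line is the median of all counted genes, and open circles are members under 10% of cells in both groups. Sdf2l1 in the second panel and Phgdh in the third were listed at 0 in all cells of the group named first. Between genotypes most folding members lie left of the red line, in mesenchyme-like cells all 15 lie below 0, and in the Oc90 comparison 14 of 15 lie above 0.

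The second comparison set mesenchyme-like against epithelial cells of Sox9Y440X/+, asking where the folding machinery is highest. All 15 folding members were lower in the 21 mesenchyme-like cells, beside 60.5% of 10950 genes, and 9 were called lower, beside 16.2%. Their median was -1.04 and that of all genes was -0.19. Where detection reached 50% in both groups, 5 of 9 folding members were called lower beside 14.4%. The per-cell mean of the 15 was 3.74 ± 0.94 log2 units in mesenchyme-like cells and 4.94 ± 0.87 in epithelial cells (SD over 21 and 37 cells). The mesenchyme-like cells had a median of 3593 genes and the epithelial cells 4506, and the part of depth in these differences was not tested.

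The members that differed most were small cofactors and secreted helpers. Creld2, a secreted disulfide isomerase-like protein, ranged from 0 to 70.3 FPKM in mesenchyme-like cells, with 3 of 21 cells detected, against 0 to 289 FPKM with 19 of 37 detected in epithelial cells, a difference of -2.61. Dnajb9, a BiP co-chaperone, ranged from 0 to 90.7 FPKM with 5 of 21 cells detected in mesenchyme-like cells, against 0 to 298 FPKM with 25 of 37 detected in epithelial cells, a difference of -2.61. Sdf2l1, a partner of BiP and Dnajb11, was listed at 0 in all 21 mesenchyme-like cells, which allows a share of up to 14.3%, and was detected in 14 of 37 epithelial cells (37.8%, interval 22.5% to 55.2%). In each of these genes some epithelial cells overlap the mesenchyme-like cells at 0.

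Abundant isomerases were lower as well. Pdia3 ranged from 0 to 699 FPKM with a median of 155 in mesenchyme-like cells, against 37 to 1318 FPKM with a median of 449 in epithelial cells, overlapping ranges with a difference of -1.80. Pdia6 ranged from 0 to 797 FPKM with a median of 228 in mesenchyme-like cells, against 0 to 675 FPKM with a median of 231 in epithelial cells, a difference of -1.01 with 18 of 21 and 36 of 37 cells detected. Its medians nearly coincide and the log2 ratio of its mean FPKM was -0.16. Pdia4 ranged from 0 to 239 FPKM with a median of 35.2 in mesenchyme-like cells, against 0 to 364 FPKM with a median of 75.7 in epithelial cells, a difference of -1.09.

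The remaining called members also overlapped between the groups. Canx ranged from 0 to 255 FPKM with a median of 7.55 in mesenchyme-like cells, against 0 to 214 FPKM with a median of 25.5 in epithelial cells, a difference of -1.04. Dnajb11, a BiP co-chaperone, ranged from 0 to 166 FPKM with 8 of 21 cells detected in mesenchyme-like cells, against 0 to 365 FPKM with 23 of 37 detected in epithelial cells, a difference of -1.33. Manf, a secreted survival factor kept by BiP, ranged from 0 to 291 FPKM with a median of 11.7 in mesenchyme-like cells, against 0 to 581 FPKM with a median of 72.6 in epithelial cells, a difference of -1.76. The highest cell was mesenchyme-like for Canx and epithelial for Dnajb11 and Manf. Hspa5 (-0.58), Hsp90b1 (-0.72), Calr (-0.40) and P4hb (-0.24), which also serves collagen prolyl hydroxylase, were not.

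In the Atf4 branch, 3 members were called lower, beside 16.2% of all genes. Asns ranged from 0 to 82.3 FPKM in mesenchyme-like cells with 1 of 21 detected, against 0 to 194 FPKM in epithelial cells with 14 of 37 detected, a difference of -2.15. Phgdh ranged from 0 to 329 FPKM with a median of 0 in mesenchyme-like cells, against 0 to 769 FPKM with a median of 73.5 in epithelial cells, a difference of -1.60. Sesn3 ranged from 0 to 158 FPKM with 8 of 21 cells detected in mesenchyme-like cells, against 0 to 112 FPKM with 25 of 37 detected in epithelial cells, a difference of -1.09. Of the others, Atf4 (-0.17), Psat1 (0.05) and Ddit3 (-0.07) lay near 0. Of the list of collagen folding genes 5 were called higher, beside 8.41% of genes, and 2 lower, beside 16.2%. Among them were Fkbp10, a collagen prolyl isomerase, at 3.09, Plod1 at 1.66 and Fkbp9 at -1.77. The list medians were 0.33 for collagen folding and -1.04 for the ER folding members on this scale, beside -0.19 over all genes. As log2 ratios of mean FPKM the 2 list medians were -0.026 and -0.54, beside -0.17 over all genes. Leaving out the cell with endothelium markers gave a folding median of -0.91.

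The third comparison set ionocyte-like cells against other epithelial cells. In wild type, serine synthesis genes were low or listed at 0 in ionocyte-like cells. Phgdh was listed at 0 in all 8 ionocyte-like cells, which allows a share of up to 37.5%, and ranged from 0 to 1064 FPKM with a median of 159 in the 48 other epithelial cells, where 33 were detected (68.8%, interval 53.7% to 81.3%). Psat1 ranged from 0 to 4.05 FPKM in ionocyte-like cells, with 1 of 8 detected, against 0 to 647 FPKM with a median of 11.8 in other epithelial cells, a difference of -3.14. The call for lower was met by 5.18% of 11435 genes. In Sox9Y440X/+ the same genes were low in the 5 ionocyte-like cells, with Phgdh at -3.77 and 1 of 5 against 22 of 32 cells, and Psat1 at -2.11 and 1 of 5 against 18 of 32 cells, beside 12.7% of genes called lower.

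Folding factors of ionocyte-like cells were on balance lower in a comparison where most genes were higher. The wild-type median over the 15 was -0.42 beside 0.36 over all genes, and 9 of 15 lay below 0 beside 30.2%. Pdia6 ranged from 0 to 671 FPKM with a median of 155 in ionocyte-like cells, against 0 to 1183 FPKM with a median of 463 in other epithelial cells, a difference of -1.70. Exons of Pdia6 overlap those of the ionocyte marker Atp6v1c2 on the opposite strand, and reads of the pair may not have been told apart. Pdia3 ranged from 67.9 to 793 FPKM with a median of 195 in ionocyte-like cells, against 0 to 1514 FPKM with a median of 554 in other epithelial cells, a difference of -1.20. Sdf2l1 ranged from 0 to 32.5 FPKM in ionocyte-like cells, with 2 of 8 detected, against 0 to 297 FPKM with 19 of 48 detected in other epithelial cells, a difference of -1.12. In Sox9Y440X/+ the folding median was -0.75 beside 0.17, with Pdia6 at -2.60, Pdia3 at -0.75 and Sdf2l1 at 0.11.

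In wild type, 2 of the 4 degradation members were called higher. Selenos ranged from 0 to 294 FPKM with a median of 90.3 in ionocyte-like cells, against 0 to 321 FPKM with a median of 0 in other epithelial cells, a difference of 2.90. Herpud1 ranged from 0 to 93.7 FPKM in ionocyte-like cells, with 3 of 8 detected, against 0 to 286 FPKM with 5 of 48 detected in other epithelial cells, a difference of 1.32. In Sox9Y440X/+ Herpud1 was again called higher, at 1.5, and Selenos was at -0.20. The call for higher was met by 24.7% of genes in wild type and 21.8% in Sox9Y440X/+. Asns was called higher in ionocyte-like cells of both genotypes, at 1.05 with 3 of 8 against 6 of 48 cells in wild type and at 3.42 with 4 of 5 against 10 of 32 cells in Sox9Y440X/+. The wild-type values ranged from 0 to 57.1 FPKM in ionocyte-like cells, against 0 to 110 FPKM in other epithelial cells, and the difference fell short of the call in other settings, among them a pseudocount of 10, at 0.40, and a division into 12 clusters, at 0.54. Xbp1 had opposite signs, -0.86 in wild type and 1.41 in Sox9Y440X/+. A test of the difference between genotypes was not possible with 1 sample each.

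The last comparison asked whether cells that make more Oc90 carry more folding machinery. Oc90 was detected in 12 of 37 Sox9Y440X/+ epithelial cells, from 68.7 to 941 FPKM, and in 53 of 56 wild-type epithelial cells, with a median of 1326 and a maximum of 4840 FPKM. In wild type, the 18 cells with the highest Oc90 and the 18 with the lowest had a median of 3195 and 2679 genes per cell. The folding median was 1.0 between them beside 0.02 over all genes, 14 of 15 members were above 0 beside 51.2%, and 7 were called higher beside 9.41%. The lowest 18 held 7 of the 8 ionocyte-like cells and the highest 18 held none. Where cells were left out, the highest and lowest groups were redrawn among the cells kept, at new Oc90 cut-offs. Without ionocyte-like cells, with 16 cells in each redrawn group, the folding median was 0.52. Within the 25 wild-type cells of cluster 6 alone, with 8 cells in each redrawn group, it was -0.18.

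Xbp1 had the largest difference outside the Atf4 branch. It ranged from 0 to 268 FPKM with a median of 78.1 in the 18 cells highest in Oc90, against 0 to 167 FPKM with a median of 0 in the 18 lowest, with 14 and 6 cells detected and a difference of 3.10. Calr ranged from 12.5 to 884 FPKM with a median of 382 in the highest, against 0 to 581 FPKM with a median of 172 in the lowest, a difference of 1.65. Pdia6 ranged from 115 to 899 FPKM with a median of 558 in the highest, against 0 to 778 FPKM with a median of 202 in the lowest, a difference of 1.61. The groups overlapped in each gene. Sdf2l1 (2.45), Dnajb9 (1.88), Dnajb11 (1.69), Hsp90b1 (1.31) and Pdia3 (1.03) were also called, and Hspa5 was at 0.34.

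Several of these values depended on which cells entered, with the groups redrawn each time as above. Without ionocyte-like cells Pdia6 was at 0.52 and Pdia3 at 0.50, while Xbp1 was at 2.92 and Calr at 1.66. Within cluster 6 alone, Xbp1 (2.81), Dnajb11 (2.75), Sdf2l1 (1.11) and Calr (1.04) were past 1 log2 unit, and Pdia3 was at 0.041, Hsp90b1 at -0.023, Pdia6 at -0.18 and Dnajb9 at -0.74.

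Serine synthesis genes also differed widely, with Phgdh at 4.14, detected in 14 of 18 cells high and 4 of 18 cells low in Oc90, and Psat1 at 2.39 with 10 and 4 cells. The low group held 7 ionocyte-like cells, and all wild-type ionocyte-like cells are listed at 0 for Phgdh. Without ionocyte-like cells, and with the groups redrawn, Phgdh was at 1.69 and Psat1 at 0.98. The correlation of Phgdh with Oc90 across wild-type cells was then 0.09 in place of 0.29. Sesn3 (1.10) and Ppp1r15a (1.02) were called higher too, Atf4 was at 0.76 and Asns at -0.51. Sesn3 was at -0.45 as a log2 ratio of mean FPKM, and Ppp1r15a was at 0.13 without ionocyte-like cells and at -1.02 within cluster 6. Selenos was called lower at -1.16, beside 8.24% of genes called lower, but was at 0.69 without ionocyte-like cells and at 0.0047 within cluster 6. Across the 56 wild-type cells the Spearman correlation with Oc90 was 0.44 for Pdia3, 0.35 for Xbp1 and 0.34 for Calr, and the median over the folding members was 0.20, beside a median of -0.0032 over 8596 genes, of which 0.454% reached 0.4. These correlations are across cells of 1 sample that share their library preparation. Within the 25 wild-type cells of cluster 6, the correlation was 0.048 for Pdia3, 0.31 for Xbp1 and 0.10 for Calr, and the folding median was 0.0023. With the number of genes per cell held fixed, the median over the 56 cells was 0.20 as well. Across 37 Sox9Y440X/+ cells it was 0.02. The 12 Sox9Y440X/+ cells with Oc90 and the 25 without had a folding median of 0.36 between them, with 8 of 15 above 0 beside 46% of genes. Over the 11 folding members detected in at least 50% of both groups the median was -0.046, with 6 below 0, and as log2 ratios of mean FPKM the median over the 15 was 0.0075. Of the folding members, Dnajb9 (2.21) and Creld2 (1.82) were called, beside 8.24% called higher. Ppp1r15a (1.43) and Atf6 (1.08) were called as well, and Xbp1 was at -0.32.

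**Figure D5:**
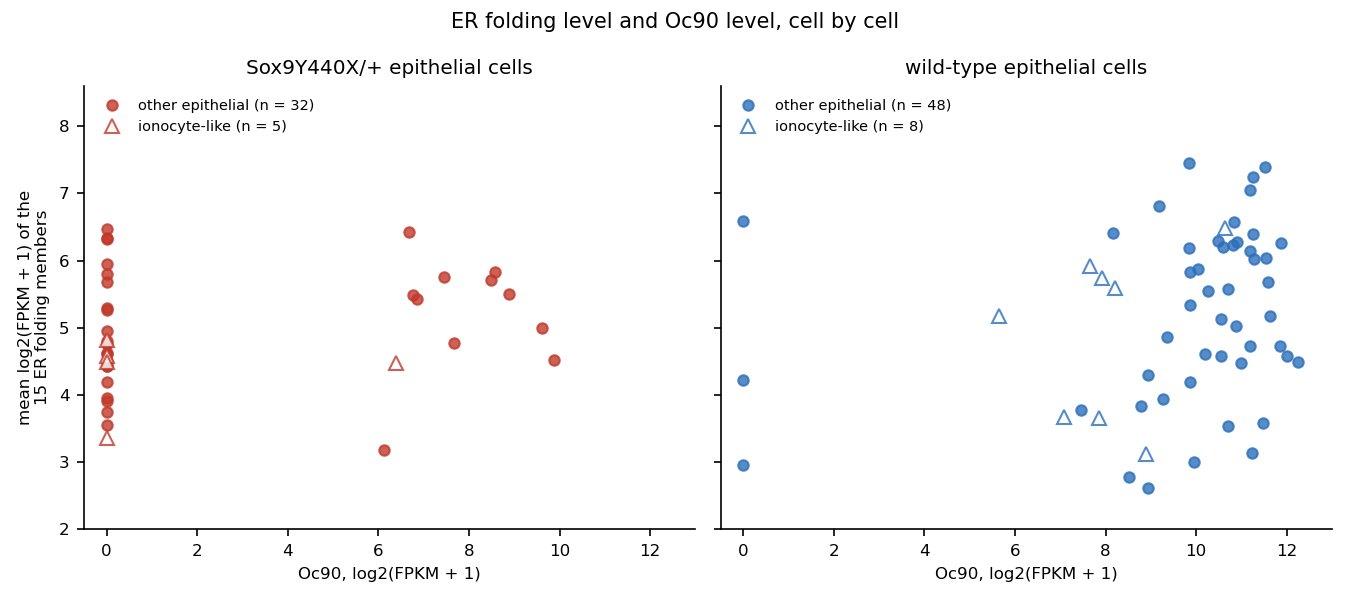
Mean log2(FPKM + 1) of the 15 folding members against Oc90, log2(FPKM + 1), for each epithelial cell, Sox9Y440X/+ left and wild-type right. Filled circles are other epithelial cells and open triangles are ionocyte-like cells. Of the 37 Sox9Y440X/+ cells, 25 stand at 0 on the Oc90 axis. The Spearman correlation is 0.25 in both panels, and -0.038 within the 25 wild-type cells of cluster 6.

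How far the folding factors varied together was read from correlations across cells. Over the 12 folding members detected in at least 50% of wild-type epithelial cells, the median Spearman correlation of their 66 pairs was 0.22, and 6.06% of pairs reached 0.4, beside a median of 0.04 and 0.856% over all pairs of such genes. The highest were Hsp90b1 with Dnajb9 at 0.46 and Pdia6 with Manf at 0.43. In Sox9Y440X/+ epithelial cells the median was 0.09, and 3.03% of pairs reached 0.4, beside 0.03 and 1.9% over all pairs. Calr with Pdia3 (0.47) and Canx with Pdia3 (0.44) led among the folding pairs there. Folding members with Atf4-branch members had medians of -0.01 in Sox9Y440X/+ and 0.04 in wild type, close to those of all pairs. These medians cover 5 Atf4-branch members in Sox9Y440X/+ and 3 in wild type. Single pairs differed from them. Dnajb9 with Atf4 was at 0.51 in Sox9Y440X/+, above every folding pair there, and at -0.02 in wild type. Of the 60 such pairs in Sox9Y440X/+, 1.67% reached 0.4, beside 1.9% of all pairs. The per-cell folding mean, which includes undetected members, correlated with the number of genes per cell at 0.38 in Sox9Y440X/+ and 0.54 in wild type. Taken singly, folding members had a median correlation with genes per cell of 0.10 in Sox9Y440X/+, beside 0.19 over all genes. In wild type it was 0.16, beside 0.24 over all genes. Read depth is unknown, and its part in the pair values was not tested.

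Folding members with the ER stress element in the promoter window and those without it gave these medians. Dnajb11, which held ERSE-II, was counted among those without the ER stress element. Between genotypes they were -0.18 over the 7 with it and -0.25 over the 6 without it. Mesenchyme-like against epithelial cells, they were -0.72 with it and -1.57 without it. Between wild-type cells high and low in Oc90, they were 0.53 with it and 1.36 without it.

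Reads of overlapping genes cannot be told apart where the counting did not use strand, and its use is not given in the sources used here. Exons of other annotated genes overlap those of Hsp90b1, Pdia3, Pdia4, Pdia6, Manf, Dnajb9, Eif2ak3, Ddit3 and Ppp1r15a, and their values are uncertain to that extent. Exact zeros in FPKM tables can be failed estimates, and Gapdh and Eef2, used by every cell, were listed at 0 in 2 and 5 of the 115 cells.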

How the data were processed

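Single cells of E14.5 endolymphatic sacs were measured by Smart-seq2, per the labels' protocols. The authors deposited 1 table of FPKM values with 48555 gene entries for 120 cells. Cufflinks, HISAT2, HTSeq, SAMtools 0.1.18 and the build mm10 are listed, without roles, per the submitters' processing notes. The sources used here give no settings, annotation or filters. Read depth is unknown, so no interval of a single FPKM value can be given, and 0 of the value columns lacked a sample.

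Entries of 1 symbol were summed to 48371 symbols. Of the gene identifiers, 99.26% were in GENCODE M21 on GRCm38, the assembly of mm10. Of 317 listed genes, 314 were matched, 7 by another symbol. The members and lists were chosen with earlier results of these data known. Full values were given to members past 1 log2 unit in the genotype, mesenchyme-like or ionocyte-like comparison and to Hspa5, Hsp90b1, Calr, Xbp1, Atf4, Asns and Ddit3. From each other list, 2 to 4 genes with the largest genotype difference were named.

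Cells under 1000 genes per their label were left out (4 Sox9Y440X/+ and 1 wild-type). Ward clustering used 15 principal components of the 1500 most variable genes in at least 5 cells, without members and listed secretory, stress and heat shock genes, and gave 8 clusters. A cluster took its name from its highest marker list, of which 3 or more genes had to reach 50% of the cells, and ionocyte-like clusters needed 8 or more ionocyte markers. No doublet caller was run. A gene was detected at an FPKM of at least 1. Differences are means of log2(FPKM + 1), a pseudocount of 1, which understates differences of low genes, and genes found in 10% or more of either group's cells were counted. No test was made, with 1 sample per genotype. Intervals of shares are exact Clopper-Pearson 95% intervals, and the upper limit beside a count of 0 is 3 counts of the number of cells. Scripts were tested on simulated data. Promoters came from RefSeq tables on GRCm38.p6. Other settings were pseudocounts of 0.1 and 10, ratios of mean FPKM, scaling to equal summed FPKM, other depth limits, clustering with all genes or 12 clusters, values within clusters, and subsets of cells. Python 3.11.15, numpy 2.4.6, pandas 2.3.3, SciPy 1.17.1 and matplotlib 3.10.9 were used.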

Additional observations from a re-analysis of the deposited data

How the results depend on the processing

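Across other settings, 34 differences of single members were recomputed 310 times, of which 220 changed little, 83 moved and 7 changed sign. Of 135 recomputed values of 14 summaries, 98 changed little, 36 moved and 1 changed sign. The cause of these changes was not tested. No paired analysis was possible because each genotype is 1 sample and no label pairs cells.

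With a pseudocount of 0.1, the ionocyte-like folding median was -0.23 and its Atf4-branch median -0.30, 3 members were called higher and 1 lower between genotypes, beside 22.3% and 3.66% of all genes, and the median between Sox9Y440X/+ cells with and without Oc90 was 0.55. With a pseudocount of 10, the mesenchyme-like folding median was -0.57, 0 members were called higher between genotypes (Asns at 0.89), beside 0.764% of all genes, and the Oc90-detected median was 0.16. As log2 ratios of mean FPKM, the genotype medians were -0.41 (folding) and -0.44 (Atf4 branch), the Atf4-branch median over all cells was -0.48, the mesenchyme-like medians were -0.54 and -0.29, the ionocyte-like medians were -0.85 and -1.39, 5 members were called lower beside 13.4% of all genes, the Oc90-detected median was 0.0075, and Sesn3 in the wild-type Oc90 comparison was -0.45.

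In cells with at least 2000 genes, the mesenchyme-like Atf4-branch median was -0.0088, 1 member was called lower beside 1.83% of all genes and the Oc90-detected median was 0.20. In cells with 2500 to 5500 genes, the genotype medians were -0.46 and -0.13, the folding median over all cells -1.09, the ionocyte-like medians -1.10 and -0.69, the Oc90-detected median 0.54 and that between wild-type cells high and low in Oc90 0.63, with 9 members called lower between genotypes beside 3.86%. Averaged within clusters, the genotype folding median was -0.43 with 3 members called lower (Dnajc3, Selenos and Phgdh) beside 6.70% of all genes, and against wild-type cells without Xist it was -0.55 with 2 beside 4.35%. Without ionocyte-like cells, chosen after seeing the data in part, the genotype Atf4-branch median was -0.14, the Oc90-detected median 0.20, the wild-type Oc90 median 0.52 and Selenos in that comparison 0.69. In wild-type cluster 6 alone, also chosen after seeing the data, the Oc90 folding median was -0.18 and the median correlation 0.0023, with Hsp90b1 at -0.023, Pdia6 at -0.18, Dnajb9 at -0.74, Selenos at 0.0047 and Ppp1r15a at -1.02. In each setting that left out cells, the wild-type groups high and low in Oc90 were redrawn among the cells kept. With 1 sample per genotype and unknown depth, spread between animals could not be measured.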

Other observations

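Other secretory genes differed between ionocyte-like and other epithelial cells of wild type, and the genes named here were chosen after their values were seen. Of 15 translocation genes 9 were called higher, with a median of 1.30, and of 9 counted export and retrieval genes 6 were called higher, with a median of 1.58, beside 24.7% of all genes. Sec23b, a coat subunit of vesicles leaving the ER, was detected in 8 of 8 ionocyte-like and 20 of 48 other epithelial cells, with mean levels of 380 FPKM and 46.2 FPKM in the same order, a difference of 5.84. Txndc5, an ER thioredoxin-like isomerase, was at 3.27, with 326 FPKM in ionocyte-like and 110 FPKM in other epithelial cells. Selenom, an ER selenoprotein, was at -4.45, with 12.3 FPKM in ionocyte-like and 312 FPKM in other epithelial cells. The ionocyte-like cells had more genes per cell, with a median of 4912.5 against 3137.5, and the part of depth in these differences was not tested.

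In mesenchyme-like cells of Sox9Y440X/+, Atf3, a stress-raised transcription factor, was detected in 5 of 21 cells with a mean of 10.7 FPKM, against 30 of 37 epithelial cells with a mean of 419 FPKM, a difference of -5.49. Of 16 immediate-early genes, 9 were called lower, beside 16.2% of all genes. Their list median was -1.14, beside -0.19 over all genes. Fkbp10 was detected in 14 of 21 mesenchyme-like and 10 of 37 epithelial cells, with means of 92.5 FPKM and 10.9 FPKM.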
